A study of Mus musculus with 7 samples.

Results

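Mouse macrophages that had met muramyl dipeptide (MDP) 2 times were compared with macrophages that had met no bacterial product. The comparison used 2 of the 7 arrays of the series, 1 per group, and all 18193 genes that had a probe set with a single gene symbol. In the first group, macrophages grown from bone marrow were kept with MDP for 24 h and then given MDP for 3 h more. The other group, called unstimulated, had no ligand in either period. The MDP concentration is printed as 10 mg/ml on the labels, where a micro sign may have been lost. The remaining arrays are used here only to place these 2: MDP for 24 h then Pam3CSK4 for 3 h, Pam3CSK4 then MDP, Pam3CSK4 then Pam3CSK4, untreated then MDP, and untreated then Pam3CSK4. The Pam3CSK4 concentration is printed as 1 mg/ml, with the same doubt. Pam3CSK4 is a synthetic bacterial lipopeptide sensed by Toll-like receptor 2 at the cell surface. Cells untreated during the first 24 h are called naive. The labels give no strain, age, sex or number of animals, and no allele or genetic change is named for any group. No array had MDP for 24 h without a second ligand, so the first and the second exposure cannot be told apart in the cells exposed 2 times.

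MDP is the smallest fragment of bacterial peptidoglycan with immune activity. It enters the cytosol and is sensed by NOD2, which recruits the kinase RIPK2 and leads to activation of NF-kB and MAP kinases. A first exposure makes macrophages less responsive to a second one, a state called tolerance, in which cytokine and chemokine genes are known to be induced less. Macrophages also respond to microbial products by releasing type I interferon, which acts on the same and neighbouring cells and induces a large set of antiviral genes.

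Values are RMA expression levels on the log2 scale, so a difference of 1 is 2-fold. With 1 array a group there is no replicate check and no test of any difference, and precision is limited by how few arrays there are. A gene is called higher or lower here when the 2 arrays differ at least 2-fold. The 7 array medians lay between 5.48 and 5.55. Levels on the other arrays are set side by side with these, since their differences from unstimulated cells share the unstimulated array. The differences, always MDP then MDP minus unstimulated, had a median of -0.011 over all genes, and 86.5% of genes lay within 0.25 of 0. At least 2-fold higher were 71 genes, which is 0.39% of those compared, and at least 2-fold lower were 7 genes, or 0.0385%. At the 3-fold threshold that the study used for induction, 23 genes were higher (0.126%) and 2 were lower (0.011%). Just inside the 2-fold line were Slfn5 with 1.004 and Sp100 with 1.002, and just outside it were Casp4 with 0.997 and Ifitm6 with 0.993. The macrophage label was checked on 19 identity genes, which were all above the array median and had a median difference of -0.01. At least 0.5 higher were 2 of them, Aif1 with 0.78 and Fcgr1 with 0.53, against 2.11% of all genes. Adgre1, a macrophage surface adhesion receptor chosen after its values were seen, was at 13.21 after MDP then MDP and 13.18 in unstimulated cells.

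Of the 71 higher genes, 35 belonged to interferon-stimulated gene lists or to interferon-induced gene families, 18 to lists of inflammatory genes and 18 to neither. The 4 highest were Ccl5, a chemokine for T cells and monocytes, Acod1, the enzyme that makes itaconate, Saa3, an acute phase protein, and Slfn1, a Schlafen family member. Ccl5 was 10.8-fold higher, Acod1 10.5-fold, Saa3 9.20-fold and Slfn1 7.56-fold. The families were read off the gene symbols after the values had been seen.

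**Figure D1:**
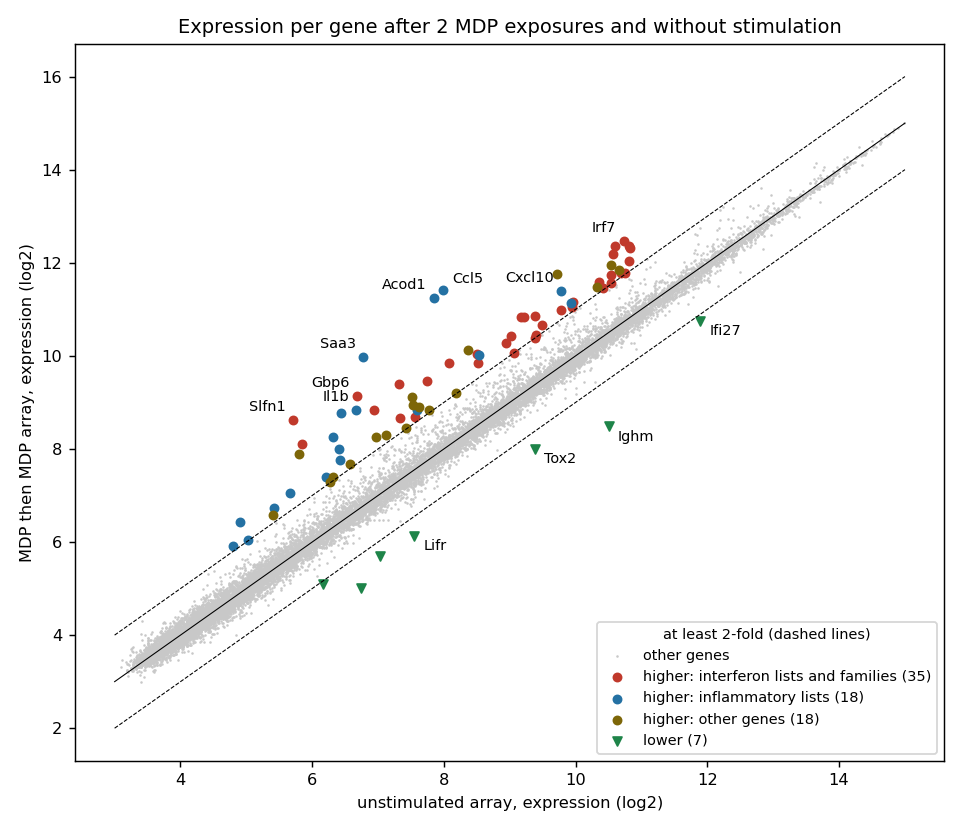
Expression of 18193 genes (log2, 1 point per gene) on the MDP then MDP array (vertical axis) against the unstimulated array (horizontal axis), with dashed lines at a 2-fold difference. Most genes lie on the diagonal, and the 71 higher genes are coloured by group (35 interferon, 18 inflammatory, 18 other) beside the 7 lower genes.

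The interferon-type genes were the most frequent class. Over both interferon lists together (interferon-stimulated genes, and guanylate-binding and immunity-related GTPases), 48 members were measured. Of these, 26 were at least 2-fold higher, against 0.39% of all genes, and 0 were 2-fold lower. All 48 were above 0, against 42.7% of all genes. The interferon-stimulated gene list alone had 39 measured members with a median difference of 1.00, and 35 of them were at least 0.5 higher, against 2.11% of all genes. Irf7, the transcription factor that amplifies type I interferon production, was at 12.46 after MDP then MDP, against 10.73 in unstimulated cells, a 3.32-fold difference. It was at 12.54 after MDP then Pam3CSK4, at 13.35 and 13.30 after Pam3CSK4 then MDP and Pam3CSK4 then Pam3CSK4, and at 10.79 and 10.81 in naive cells given MDP and Pam3CSK4. The 4 pretreated arrays thus lay above all 3 naive arrays, and the 3 naive arrays lay within 0.08 of each other.

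Isg20, an antiviral exonuclease, had the same arrangement, with 9.46 after MDP then MDP, against 8.03 in naive cells given MDP and 7.74 in unstimulated cells. Oas3, which makes the second messenger that activates RNase L, was at 10.84 after MDP then MDP, against 9.36 in naive cells given MDP and 9.22 in unstimulated cells. Herc6, the mouse ligase that attaches the ubiquitin-like protein ISG15 to its targets, was chosen after its values were seen and was at 10.03, 8.82 and 8.49 on the same arrays. In these genes the level after a single 3 h exposure to MDP stood 0.29 (Isg20), 0.14 (Oas3) and 0.33 (Herc6) over unstimulated. Other antiviral genes stood higher after the single exposure already. Ifit2, which is known to inhibit translation of viral RNA, was at 12.36 after MDP then MDP, against 12.15 in naive cells given MDP and 10.59 in unstimulated cells. Oasl1, known in mice to repress translation of Irf7 mRNA, was at 9.85 after MDP then MDP, against 9.30 in naive cells given MDP and 8.07 in unstimulated cells. Ifit1 was at 11.77, below the 12.50 of naive cells given MDP and above the 10.70 of unstimulated cells.

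Genes that sense nucleic acids or carry the interferon signal were part of the group. The RNA helicases Ddx58 (RIG-I) and Ifih1 (MDA5) were 1.17 and 1.20 higher after MDP then MDP, and Ddx58 was below 2-fold with averaged probe sets. The DNA and RNA sensor Zbp1 was 1.47 higher. Stat2, a transcription factor that type I interferon activates, was at 8.69 after MDP then MDP, against 7.56 in unstimulated cells, and its partner Irf9 was at 10.15, against 9.53. Usp18, which removes ISG15 and restrains interferon receptor signalling, was at 12.03, against 10.81. Ddx58, Ifih1, Zbp1, Stat2 and Usp18 were chosen after their values were seen.

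Of 8 genes measured in the p200 family, known for DNA sensing, 2 were at least 2-fold higher, against 0.39% of all genes. Ifi213 was at 8.10 after MDP then MDP, against 5.84 in unstimulated cells, and Ifi209 at 12.18, against 10.57. Of 9 Schlafen genes measured, 4 were at least 2-fold higher, against 0.39% of all genes. Slfn1, known to restrain T cell growth in mice, was at 8.63 after MDP then MDP, against 6.48 in naive cells given MDP and 5.71 in unstimulated cells. Slfn4, a myeloid member of the family, was at 9.40, against 7.67 and 7.32. Both were higher still after Pam3CSK4 then Pam3CSK4, with 11.06 for Slfn1 and 12.48 for Slfn4.

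All 9 measured members of the list of guanylate-binding and immunity-related GTPases, which attack the vacuoles of intracellular microbes, were between 0.94 and 2.46 higher. Of them, 6 passed 2-fold, against 0.39% of all genes. Gbp6 was at 9.14 after MDP then MDP, against 7.67 in naive cells given MDP and 6.68 in unstimulated cells, a 5.49-fold difference over unstimulated, and a further Gbp6 probe set gave a difference of 2.65. Iigp1 was at 8.83 after MDP then MDP, against 6.94 in unstimulated cells. Irgm1, which is also counted in the NOD2 list for its role in autophagy, was at 11.57, against 10.53.

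Several of the higher genes were neighbours in the genome. By the RefSeq gene table (GRCm38.p6), 29 of the 71 lay in 12 runs of 2 or more higher genes less than 500 kb apart. The share of all genes in such runs was not computed, and several runs held members of a single gene family. The count is therefore a description only. The longest run, on chromosome 11, held Slfn5, Slfn8, Slfn1, Slfn4 and Ccl5. The next held Ifit2, Ifit3, Ifit1bl1 and Ifit1 on chromosome 19, and pairs were formed by Ifi213 with Ifi209, Gbp3 with Gbp2, Oasl2 with Oasl1, Cxcl3 with Cxcl2, Cxcl9 with Cxcl10 and Il1a with Il1b.

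The promoters were searched for the interferon-stimulated response element, the DNA motif through which interferon acts on these genes, written here as GAAA, any 2 bases and GAAA on either strand. RefSeq promoter windows (GRCm38.p6) of 250 bases before to 50 after a gene's start were at hand for 14368 of the genes. Among the higher interferon-type genes, 15 of 29 with a window held the motif (51.7%), against 3 of 15 inflammatory genes (20%), 0 of 13 other higher genes and 523 (3.64%) of all genes with a window. Members of the interferon lists that were not 2-fold higher held it in 10 of 16 (62.5%), so the motif did not separate members past 2-fold from the rest. A match is a description of letters and not of binding. The stretches below are shown because they carry the motif, in capitals, in genes of this group, together with Saa3 and Cxcl10 of the inflammatory group, each read 5′ to 3′ on the strand of the gene.
Ifi213, chr1:173599321-173599360, minus strand: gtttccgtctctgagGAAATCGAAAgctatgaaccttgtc
Oas3, chr5:120777710-120777749, minus strand: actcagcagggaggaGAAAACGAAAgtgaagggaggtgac
Ifit3, chr19:34583392-34583431, plus strand: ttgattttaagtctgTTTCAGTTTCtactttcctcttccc
Gbp3, chr3:142559990-142560029, plus strand: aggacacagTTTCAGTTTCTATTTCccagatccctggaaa
Stat2, chr10:128270261-128270300, plus strand: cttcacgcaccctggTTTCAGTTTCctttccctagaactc
Irgm1, chr11:48871426-48871465, minus strand: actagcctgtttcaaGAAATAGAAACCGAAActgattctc
Saa3, chr7:46715777-46715816, minus strand: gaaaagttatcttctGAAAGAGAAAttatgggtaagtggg
Cxcl10, chr5:92349078-92349117, minus strand: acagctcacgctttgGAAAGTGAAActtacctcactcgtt

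The inflammatory genes among the 71 were 18, and they had the largest single differences. Ccl5 was at 11.42 after MDP then MDP, against 10.17 in naive cells given MDP and 7.99 in unstimulated cells, so the level after 2 exposures lay above that after 1. Saa3 was also higher after MDP then MDP than after the single exposure, with 9.98, against 9.40 in naive cells given MDP and 6.78 in unstimulated cells. For 12 of the 18 genes the order of the MDP arrays was the other way. Acod1 was at 11.24 after MDP then MDP, against 12.85 in naive cells given MDP and 7.85 in unstimulated cells. Cxcl3, a neutrophil chemokine, was at 8.78 after MDP then MDP, against 10.11 and 6.43 on those arrays. Il1b, a fever-inducing cytokine, was at 8.83, against 9.73 and 6.67. Clec4e (Mincle), a receptor for mycobacterial glycolipid, was at 11.13, against 13.03 and 9.93. Each of these 4 thus stood above the unstimulated level and below the level after a single MDP exposure. Cxcl10, which attracts activated T cells, was at 11.38 after MDP then MDP, against 12.70 in naive cells given MDP and 9.78 in unstimulated cells.

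Set against naive cells given MDP, the median of the 18 inflammatory genes was -0.91, and 8 of them stood at least 2-fold below that array, against 0.291% of all genes. For the 35 interferon-type genes the same median was 0.62, and 0 of them stood at least 2-fold below naive cells given MDP. Both sets were chosen for a high MDP then MDP value, and these counts are a description.

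**Figure D2:**
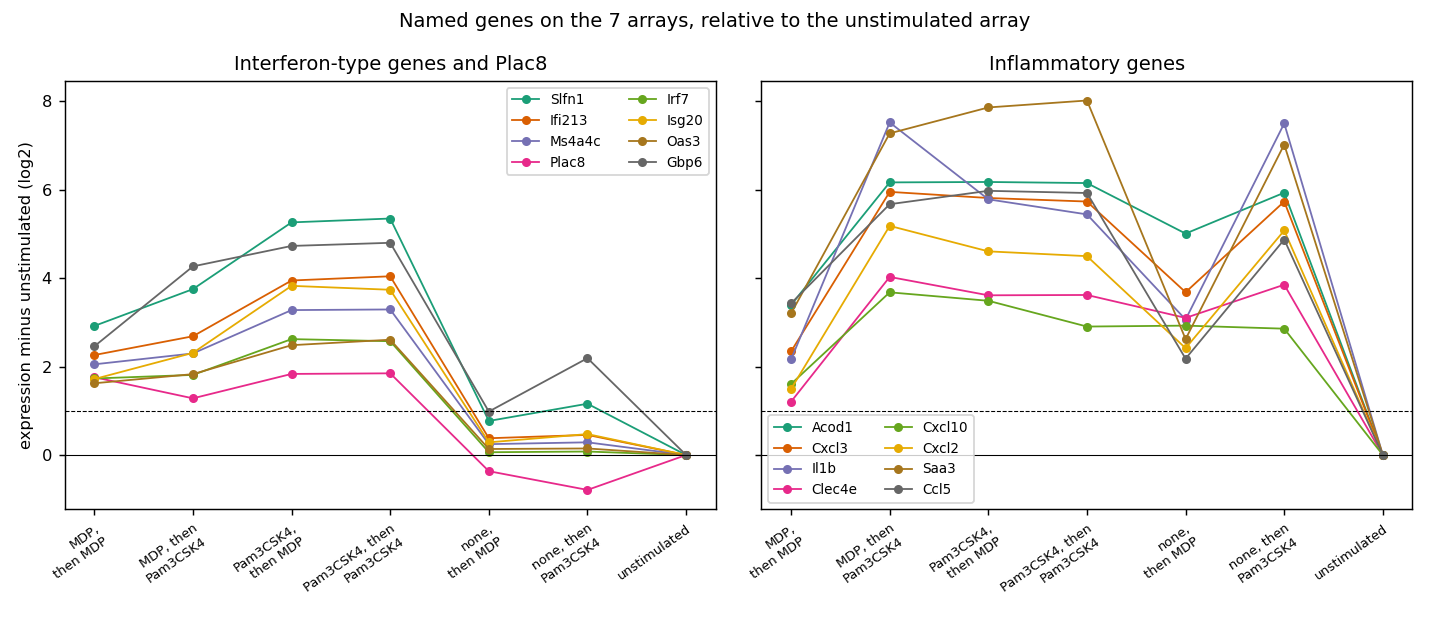
Expression relative to the unstimulated array (log2) on the 7 arrays, 1 array per position, for 8 interferon-type or other genes (left) and 8 inflammatory genes (right), with a dashed line at 2-fold. In the left panel the 4 pretreated arrays are high and the naive arrays are near 0 for Irf7 and Oas3, and in the right panel naive cells given MDP exceed cells given MDP then MDP for Acod1, Cxcl3 and Il1b but not for Ccl5 or Saa3.

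Other members of the group differed in level on the remaining arrays. Mmp14, a membrane-bound collagenase, was at 8.26 after MDP then MDP, against 6.32 in unstimulated cells, and at 11.88 to 12.47 on the other 3 pretreated arrays. In naive cells given MDP and Pam3CSK4 Mmp14 was at 9.32 and 11.65, also above the level after MDP then MDP. Its further probe sets above the array median gave smaller differences, of 0.42 and 1.02. Arg1, the arginase of alternatively activated macrophages, was at 7.06 after MDP then MDP, against 5.67 in unstimulated cells. It was at 5.83 after MDP then Pam3CSK4 and at 5.79 and 5.82 in naive cells given MDP and Pam3CSK4, so among arrays without Pam3CSK4 pretreatment only the MDP then MDP array stood apart. The formyl peptide receptor Fpr2 was at 8.0 after MDP then MDP, against 7.15 in naive cells given MDP and 6.41 in unstimulated cells. Serpinb2, Il1a and Cxcl9 lay below the array median of 5.50 in unstimulated cells, and their folds of 2.90, 2.18 and 2.05 on the deposited values are therefore uncertain. Counted from that median they were at least 1.92-fold, 1.34-fold and 1.47-fold higher, bounds that do not settle whether these 3 passed 2-fold.

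Chemokines and cytokines held a few high members, with list medians near 0. Of 25 chemokines, 5 were at least 2-fold higher, against 0.39% of all genes, 8 were at least 0.5 higher, against 2.11% of all genes, and the list median was 0.14. The lowest was Ccl24, an eosinophil chemokine, at 6.47 after MDP then MDP, against 7.15 in unstimulated cells. Of 26 cytokines, Il1b and, on the deposited values only, Il1a passed 2-fold, against 0.39% of all genes. At least 0.5 higher were 6, against 2.11% of all genes, and the median was 0.19. Tnf was at 9.43 after MDP then MDP, against 10.23 in naive cells given MDP and 9.32 in unstimulated cells. Il10 was at 7.56, against 7.4 in unstimulated cells, and the natural interleukin 1 inhibitor Il1rn at 11.42, against 10.83. Il6 and Il12b lay below the array median on both arrays, and no fold is given for them.

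The kappaB motif bound by NF-kB was searched in the same windows. It was found in 4 of 15 inflammatory genes (26.7%), 3 of 13 other higher genes (23.1%) and 2 of 29 interferon-type genes (6.9%). The share over all genes was 6.08%, and the motif did not separate the inflammatory from the other higher genes. The stretches of Cxcl3, Cxcl2 and Cxcl10, all chemokines, and of Slfn1, from the interferon-type group, are shown with the motif in capitals. The Cxcl10 window thus held both motifs.
Cxcl3, chr5:90786014-90786053, plus strand: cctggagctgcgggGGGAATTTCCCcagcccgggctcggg
Cxcl2, chr5:90903788-90903827, plus strand: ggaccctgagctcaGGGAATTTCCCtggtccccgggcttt
Cxcl10, chr5:92348968-92349007, minus strand: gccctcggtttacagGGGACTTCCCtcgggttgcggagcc
Slfn1, chr11:83116762-83116801, plus strand: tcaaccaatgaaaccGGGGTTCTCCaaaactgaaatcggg

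The genes that receive and relay the MDP signal were mostly level. In the NOD2 list, 22 of 25 genes were measured, and the median difference was 0.02. At least 2-fold higher was 1 of them (Irgm1), against 0.39% of all genes, and 0 were 2-fold lower. Nod2, Ripk2 and Card9 are not analysed here. The related receptor Nod1 was at 7.99 after MDP then MDP, against 7.60 in unstimulated cells. The ubiquitin ligases Birc3 and Birc2, which modify RIPK2, were 0.41 and 0.09 higher, and Xiap was 0.06 higher. The kinase Map3k7 (TAK1) differed by 0.00, and its partners Tab1, Tab2 and Tab3 by -0.03, -0.03 and 0.02. The endosomal transporters of muramyl peptides Slc15a3 and Slc15a4 differed by 0.15 and -0.05, Slc46a3 by -0.34, and Slc46a2 lay below the array median on both arrays. Nagk, the kinase that phosphorylates MDP before NOD2 senses it, differed by -0.11 on one probe set and by -0.96 on the other, which is more specific. The autophagy factor Atg16l1, the deubiquitinases Otulin and Tnfaip3, and the NOD2-binding scaffold Erbin differed by 0.02, -0.09, 0.11 and -0.07, and Card6 by -0.01. The lysozymes Lyz1 and Lyz2, which digest peptidoglycan, differed by 0.05 and -0.01, and Pglyrp1 lay below the array median on both arrays.

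The list of NF-kB subunits and feedback inhibitors also had a median close to 0, with some members higher. Of 25 genes, 1 (Traf1) was at least 2-fold higher, against 0.39% of all genes. At least 0.5 higher were 4, against 2.11% of all genes, and the median was 0.13. Traf1 lay below the array median in unstimulated cells, its further probe set, close to the median on both arrays, gave 0.03, and with averaged probe sets its difference was 0.67. Nfkbie was at 9.68 after MDP then MDP, against 9.02 in unstimulated cells, and its further probe set gave a difference of 0.42. Socs1 was at 7.26, against 6.73. Nfkbia, the inhibitor IkB-alpha, was at 13.40 after MDP then MDP, against 13.36 in unstimulated cells. Irak3 (IRAK-M), known for its part in endotoxin tolerance, was at 8.60, against 8.50. Socs3 was at 7.21, against 9.45 in naive cells given MDP and 6.63 in unstimulated cells. The difference of Socs3 from unstimulated cells was 0.06 on its more specific probe set. None of 18 Toll-like receptor genes and adaptors passed 2-fold. Tlr2, the receptor of bacterial lipopeptides, was at 12.01 after MDP then MDP, against 11.20 in unstimulated cells, Tlr3, the receptor of double-stranded RNA, at 8.80, against 7.96, and Cd14 at 13.89, against 13.70.

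**Figure D3:**
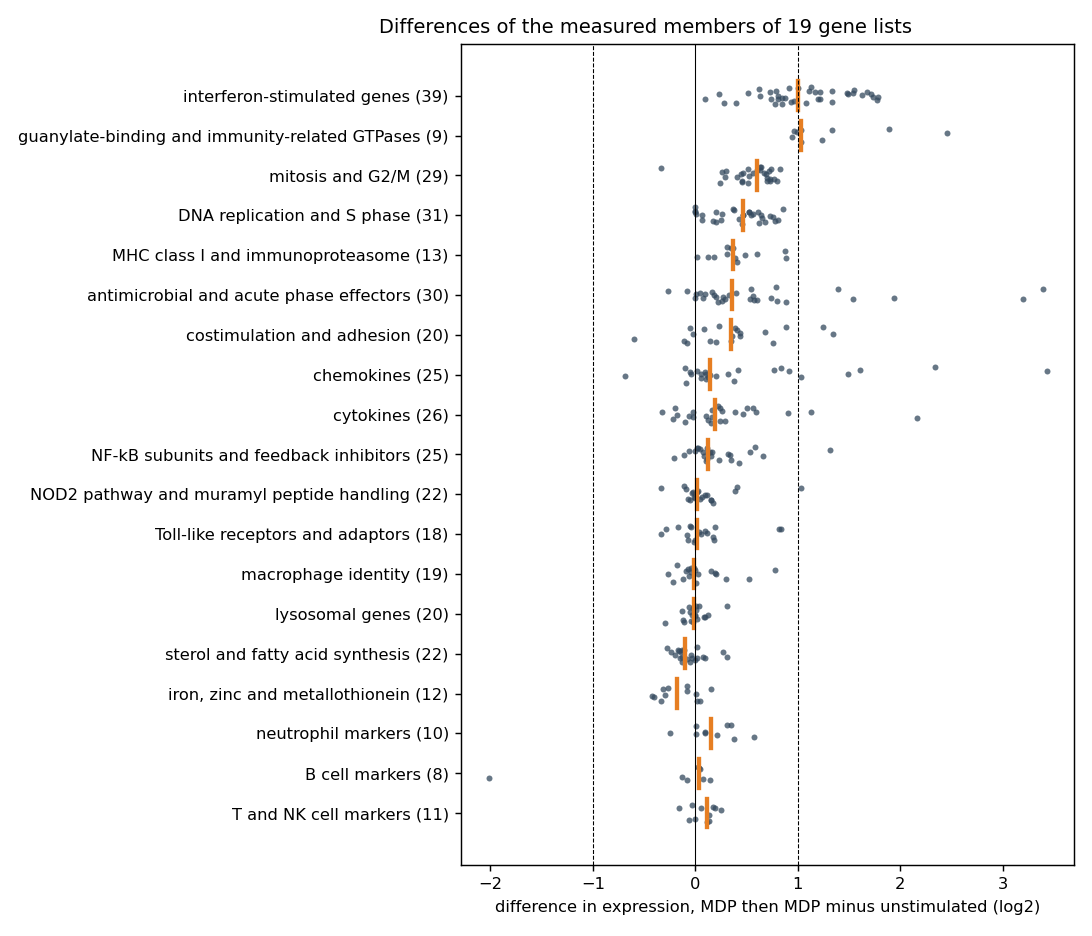
Difference between MDP then MDP and unstimulated (log2, horizontal axis) for each measured member (point) of 19 gene lists, with the list median as an orange bar, the number of members in brackets and dashed lines at 2-fold. The interferon and GTPase lists are centred near 1, the 2 cell cycle lists near 0.5, and most other lists near 0 with a few high chemokine, cytokine and effector genes.

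Antigen presentation genes were moderately higher. All 13 measured class I and immunoproteasome genes were above 0, against 42.7% of all genes. Their median was 0.37, and 0 passed 2-fold. The peptide transporter Tap1 was at 10.04 after MDP then MDP, against 9.16 in unstimulated cells, and Nlrc5, the class I transactivator, at 9.37, against 8.49. Among class I-like genes outside the list, H2-T24 was at 9.11, against 7.37 in naive cells given MDP and 7.51 in unstimulated cells. The 10 class II genes had a median of 0.23, with H2-Eb1, Cd74 and H2-Aa 0.59, 0.58 and 0.54 higher. Without probe sets that the array design marks as less specific, the class II median was 0.04.

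Cell cycle genes were shifted together by less than 2-fold. Of 31 measured genes of DNA replication and S phase, 29 were above 0, 14 were at least 0.5 higher and the median was 0.46. Of 29 mitotic genes, 28 were above 0, 19 were at least 0.5 higher and the median was 0.60. Over all genes, 42.7% were above 0 and 2.11% were at least 0.5 higher. Among mitotic genes, Cenpf, a kinetochore protein, was at 7.96 after MDP then MDP, against 7.14 in unstimulated cells, the kinase Plk1 at 9.62, against 8.85, and the kinase Aurka at 9.85, against 9.12. Cenpa, the centromeric histone, was at 11.78, against 12.11, and was the exception of the list. Among replication genes, Mcm10, which helps to start DNA synthesis, was at 8.06, against 7.2, Rrm2, a subunit of ribonucleotide reductase, at 10.05, against 9.24, and Prim1, the primase, at 8.24, against 7.47. Ncapg, a condensin subunit, and Sgo2a, the shugoshin that guards centromere cohesion, passed 2-fold, with differences of 1.02 and 1.04, and were chosen after their values were seen. Ncapg was at 0.82 with averaged probe sets, and both genes were below 2-fold after 32 was added to the linear values. Pcna, E2f1 and Ccne1, chosen likewise, differed by 0.00. In a culture, more dividing cells and more of these RNAs per cell cannot be told apart.

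The MDP then MDP array had the highest value of the 7 arrays for 24 of 31 replication genes and 25 of 29 mitotic genes. The share of all genes with their highest value on that array was not computed, so these counts are a description only. Relative to unstimulated cells, the median of the mitotic list was 0.60 after MDP then MDP, 0.20 after MDP then Pam3CSK4, -0.87 after Pam3CSK4 then MDP, -0.89 after Pam3CSK4 then Pam3CSK4, -0.09 in naive cells given MDP and -0.28 in naive cells given Pam3CSK4. Plk1 was at 9.12 after MDP then Pam3CSK4 and at 7.46 on each of the 2 arrays pretreated with Pam3CSK4. The mitotic genes thus lay highest after MDP pretreatment and lowest after Pam3CSK4 pretreatment. The replication list had another order, with a median of 0.46 after MDP then MDP and -0.17 after MDP then Pam3CSK4. Its median was 0.14 after Pam3CSK4 then MDP and 0.22 after Pam3CSK4 then Pam3CSK4. In naive cells given MDP and Pam3CSK4 it was -0.22 and -0.61. When all probe sets of a gene were averaged, the mitotic median was 0.46, Cenpf was 0.34 higher and Mcm10 0.41 higher.

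**Figure D4:**
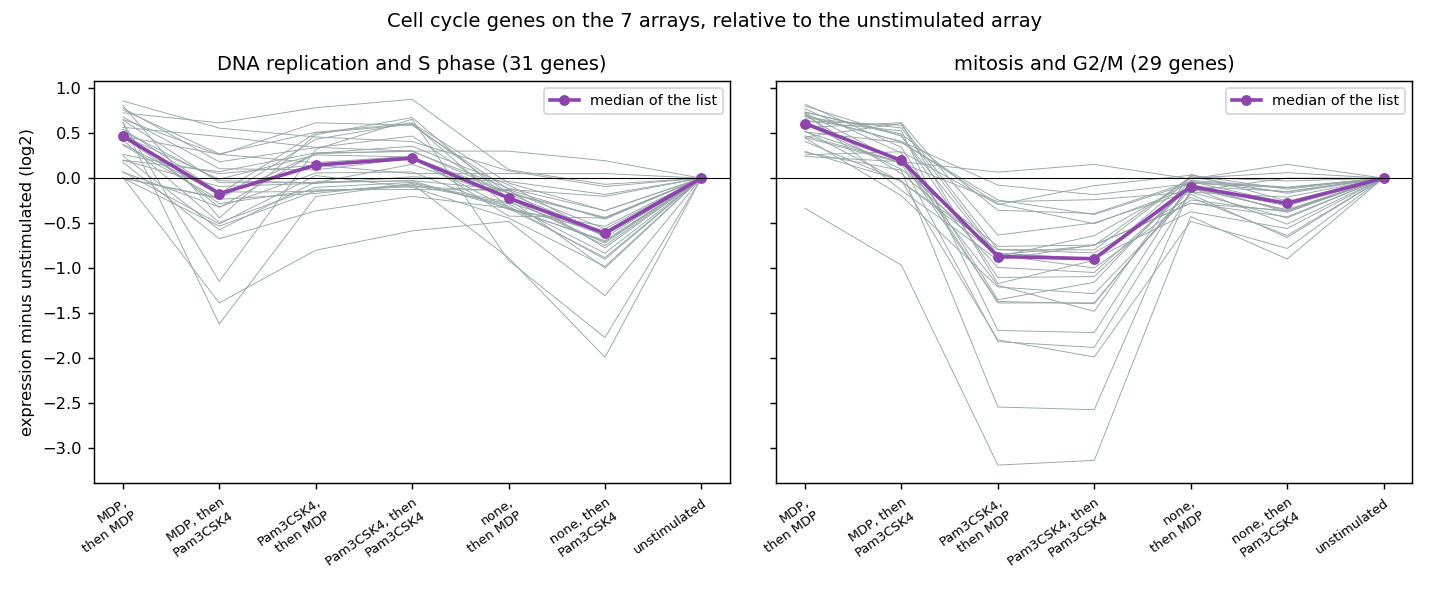
Expression relative to the unstimulated array (log2) on the 7 arrays for 31 replication genes (left) and 29 mitotic genes (right), with a thin line per gene and the list median in purple. The MDP then MDP array has the highest median in both panels (0.46 and 0.60), and the mitotic genes are lowest on the arrays pretreated with Pam3CSK4.

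Cell cycle promoters carry known elements, the E2F site of replication genes and the cell cycle homology region (CHR) of mitotic genes. The E2F site was written as TTTGGCGC or TTTCCCGC and the CHR as TTTGAA, on either strand. The E2F letters were found in 8 of 26 replication genes (30.8%), against 2.77% of all genes. The CHR letters were found in 18 of 23 mitotic genes (78.3%) and in 3 of 26 replication genes (11.5%), against 15.7% of all genes. They were also found in 11 of 29 higher interferon-type genes (37.9%) and 4 of 13 other higher genes (30.8%), and in 1 of 15 inflammatory genes (6.67%). The stretches shown have the motif in capitals and were chosen for a motif far enough before the gene's start to be printed with its flanks. The 4 genes were 0.68 (Mcm5), 0.61 (Cdc6), 0.73 (Top2a) and 0.67 (Prc1) higher after MDP then MDP.
Mcm5, chr8:75109345-75109382, plus strand: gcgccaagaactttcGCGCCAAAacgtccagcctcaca
Cdc6, chr11:98907998-98908035, plus strand: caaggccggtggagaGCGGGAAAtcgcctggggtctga
Top2a, chr11:99024192-99024227, minus strand: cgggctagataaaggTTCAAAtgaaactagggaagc
Prc1, chr7:80294431-80294466, plus strand: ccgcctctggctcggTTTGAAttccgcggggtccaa

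Among the 18 higher genes in neither group, Ms4a4c, a membrane protein of the MS4A family, was at 11.76 after MDP then MDP, against 9.96 in naive cells given MDP and 9.71 in unstimulated cells, and its further probe set gave a difference of 2.12. Of the 17 Ms4a genes measured, it was the only one at least 2-fold higher, against 0.39% of all genes. Plac8, a small cysteine-rich protein of myeloid cells, was at 10.13 after MDP then MDP, against 8.0 in naive cells given MDP and 8.37 in unstimulated cells, so the single exposure lay below unstimulated and the double exposure above it. Trem1, a receptor that amplifies inflammation, was at 8.84, against 8.01 and 7.78, and had its highest value of the 7 arrays after MDP then MDP. Dck, deoxycytidine kinase, was at 11.85, against 10.71 and 10.65. The heat shock gene Hspa1b was at 8.90, against 10.00 and 7.62. Trem1 and Dck were chosen after their values were seen. The unnamed transcripts Gm4951, AW112010 and Gm9706 were also among the 18.

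The 7 lower genes were Ighm, Slc16a12, Lifr, Tox2, Hpgd, Ifi27 and Bex1. In all 7 the unstimulated array had the highest value of the 7 arrays. Choosing the genes for a high unstimulated value favours this order, which is a description only. Ighm, the immunoglobulin heavy chain mu, was at 8.49 after MDP then MDP, against 10.50 in naive cells given MDP and 10.50 in unstimulated cells, and was 4.03-fold higher in unstimulated cells. Of its further probe sets above the array median, one gave a difference of -2.25 and the other 0.01, so the probe sets disagreed. Of 8 B cell markers measured, Ighm was the only one 2-fold apart. Its companion B cell markers Cd79b, Cd22 and Pax5 differed by 0.08, 0.04 and -0.08. The part of B cells in the Ighm difference was not tested.

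Ifi27, an interferon-induced mitochondrial protein by name, went against the interferon group, with 10.76 after MDP then MDP, against 11.89 in naive cells given MDP and 11.89 in unstimulated cells, and a further probe set gave -1.02. Hpgd, which inactivates prostaglandins, was at 5.71 after MDP then MDP, against 6.46 in naive cells given MDP and 7.04 in unstimulated cells. Lifr, the receptor of leukaemia inhibitory factor, was at 6.13, against 7.06 and 7.55. Tox2, a nuclear HMG-box protein, was at 8.0 after MDP then MDP, against 9.38 in unstimulated cells. Lifr, Hpgd and Tox2 each rest on 1 probe set of a kind the array design marks as less specific, and their further probe sets lay below the array median on both arrays. Slc16a12 lay below the array median after MDP then MDP and was at least 2.38-fold higher in unstimulated cells. Bex1, counted in the same way, was at least 1.60-fold higher in unstimulated cells.

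Below the 2-fold line, the scavenger receptor Stab1 was at 11.51 after MDP then MDP, against 12.17 in unstimulated cells, the neonatal Fc receptor Fcgrt at 11.11, against 11.70, and the endoplasmic reticulum stress gene Herpud1 at 10.28, against 10.88. The metallothioneins Mt1 and Mt2 were 13.31 and 11.60 after MDP then MDP, against 13.71 and 12.02 in unstimulated cells. Of 12 genes of iron, zinc and metallothionein handling, 8 were below 0, against 52.9% of all genes, with a median of -0.18 and 0 at least 2-fold lower. Sterol synthesis (22 genes, median -0.10), lysosomal genes (20, -0.01), mitochondrial respiratory chain genes (22, -0.02) and glycolysis (18, 0.07) had 0 genes 2-fold apart in either direction.

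Markers of other cells that a bone marrow culture can hold had list medians between -0.05 and 0.16. The summed signals of the B cell and dendritic cell lists differed more than those of the other marker lists. The 10 neutrophil markers had a median of 0.16 with 9 above 0, against 42.7% of all genes. Their summed linear signal was 10769 after MDP then MDP, against 9293 in unstimulated cells, and Ltf was the highest, with 0.58. The 11 T and NK cell markers summed to 556, against 538, and the 12 stromal markers to 957, against 1016. The 10 mast cell and erythroid markers summed to 397, against 377. The B cell markers summed to 1049, against 2124, with Ighm included. The 11 dendritic cell markers summed to 7522, against 4387, with a list median difference of 0.11 and 5 of them below the array median on both arrays. Bst2, also an interferon-stimulated gene, had the largest difference of the list, 0.85. It was at 12.74 after MDP then MDP, against 11.89 in unstimulated cells, so the sum leans on this 1 gene. The part of other cells in these results was not tested.

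The genes were then read in a pair of arrays that shares neither array with the comparison, MDP for 24 h then Pam3CSK4 minus naive cells given Pam3CSK4. In that pair the 3 h ligand was the same and the 24 h pretreatment differed, whereas MDP then MDP and unstimulated cells differed in both. All 71 higher genes were above 0 in that pair and all 7 lower genes were below 0, while 47.9% of all genes were above 0 and 46.1% below. At least 2-fold higher there were 32 of the 71, against 0.297% of all genes. The interferon-type genes had a median of 1.19 in that pair, with 21 of 35 past 2-fold, and the inflammatory genes a median of 0.41, with 2 of 18 past 2-fold. Irf7 was at 12.54 after MDP then Pam3CSK4, against 10.81 in naive cells given Pam3CSK4, a difference of 1.73, as between MDP then MDP and unstimulated. Slfn1 was at 9.46, against 6.87. Plac8 was at 9.65, against 7.58. Il1b was at 14.19, against 14.17, and Acod1 at 14.01, against 13.78, so these 2 inflammatory genes were high on both arrays of that pair, while Arg1 was at 5.83, against 5.82. The mitotic list had a median of 0.55 there, with 28 of 29 genes above 0, and the replication list 0.43, with 28 of 31. Ighm was at 8.54, against 10.42. As in the first pair, each group had 1 array.

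**Figure D5:**
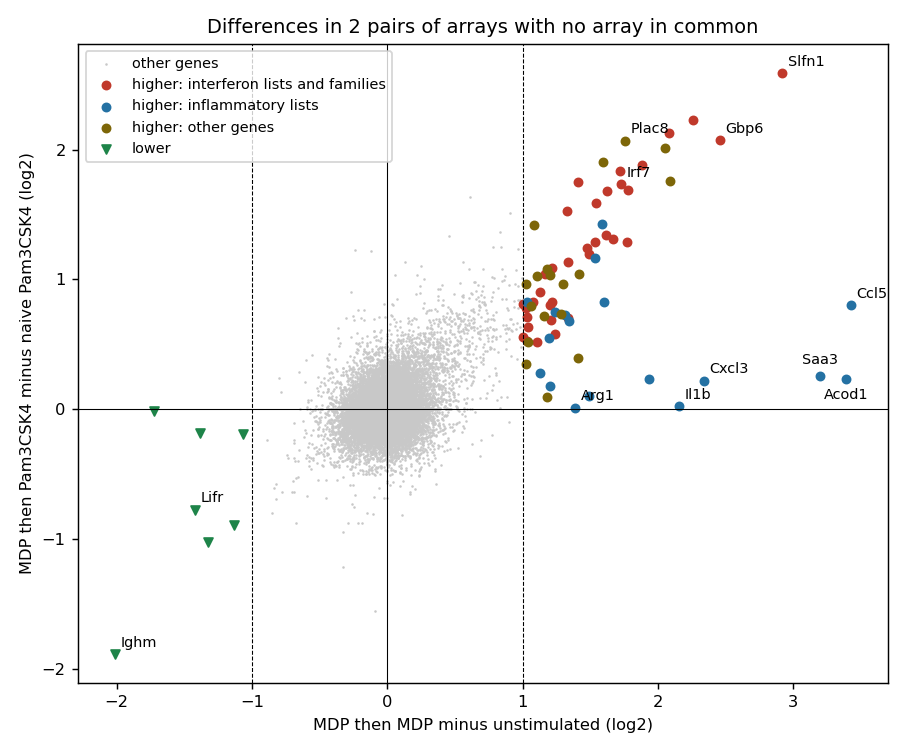
Difference between MDP then MDP and unstimulated (log2, horizontal axis) against the difference between MDP then Pam3CSK4 and naive Pam3CSK4 (log2, vertical axis) for 18193 genes, from 4 different arrays, with dashed lines at 2-fold. All 71 higher genes lie above 0 and all 7 lower genes below 0, with Slfn1, Gbp6, Plac8 and Irf7 far from 0 on both axes and Acod1, Saa3 and Il1b near 0 on the vertical axis.

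Over the 71 higher genes, the MDP then MDP array was not the highest of the series. Their median over unstimulated was 1.34 after MDP then MDP, 2.23 after MDP then Pam3CSK4, 2.58 after Pam3CSK4 then MDP, 2.61 after Pam3CSK4 then Pam3CSK4, 0.79 in naive cells given MDP and 0.95 in naive cells given Pam3CSK4. All these medians share the unstimulated array. The genes were chosen for a low value on it, which favours medians above 0, so only their order is described. The MDP then MDP array had the top value for 4 genes, namely Ddias, Ncapg, Sgo2a and Trem1. Of the 71 genes, 26 had a further probe set above the array median, and in 25 all such probe sets had the same sign, Slfn5 being the exception, while in 14 all of them were at least 2-fold higher. The 3′ minus 5′ signal of the Gapdh control probe sets was 0.025 after MDP then MDP and 0.018 in unstimulated cells. The 18S RNA control probe sets had a median of 9.29 after MDP then MDP and 8.57 in unstimulated cells, and their part in the results was not tested.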

How the data were processed

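The deposited values are RMA expression levels on the log2 scale, made by RMA (affy), per the submitters' processing notes; versions, probe set definitions and the arrays normalized together are not given in the sources used here. No scale, centring or direction was left unknown, and values ran from 2.95 to 15.1 over 45101 probe sets. Symbols came from the platform annotation: 34945 probe sets had 1 symbol, 932 several, 9160 none and 64 were controls. Each of 18193 genes was read from the single-symbol probe set whose average over all 7 arrays was highest. The pair was subtracted, with no p-value. Where 1 value lay below its array's median, folds were counted from that median and given as bounds; where both did, none is given. Genes, lists and families were chosen with earlier results of these data known; of 709 members of 38 lists, 643 were measured, and the rest are not analysed here. The text names the 15 highest and up to 15 lowest genes that pass 2-fold at the bound, up to 4 per list, the NOD2 list and a fixed set; any further gene is marked as chosen after its values were seen. Simulated data were used to check the calculation. Python 3.11.15, numpy 2.4.6, pandas 2.3.3, matplotlib 3.10.9, R 4.3.3 and limma 3.58.1 (cyclic loess, span 0.7, 3 iterations) were used. Alternatives were other centrings, probe set choices, filters, floors and thresholds, and adding 32 to linear values.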

Additional observations from a re-analysis of the deposited data

How the results depend on the processing

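Of the 71 genes at least 2-fold higher after MDP then MDP, 23 remained at a 3-fold and all 71 among 283 at a 1.5-fold threshold; of the 7 lower genes, 2 remained at 3-fold, and 45 were lower at 1.5-fold. Above 0 in the pair with no shared array were 23 and 274 of the higher genes at these thresholds, and below 0 were 2 and 36 of the lower ones. The count of higher genes was between 56 and 86 under every other setting tried. The count of lower genes was 3 when all probe sets of a gene were averaged and 3 where the higher array had to exceed its 75th percentile, each among the 7. It was 3 without less specific probe sets, of which 1 was among the 7 and Gas5 and Taf1d were not. All were below 0 in the other pair (3, 3 and 3), and the count was otherwise 5 to 7. With cyclic loess, 79 of 81 higher genes were above 0 in the other pair and 6 of 7 lower genes below 0. Above 0 there were 73 of 74 higher genes after centring on array medians and 85 of 86 after centring on housekeeping genes. Without less specific probe sets the difference of Tox2 was 0.0092, from a probe set below the array median on both arrays. With averaged probe sets, Slfn1 was 1.49 higher, Mmp14 1.13, Traf1 0.67 and Ighm fell by 0.41. Without less specific probe sets, 11 higher genes had no value left (Dck, Gbp3, Gm9706, Il1b, Irf7, Isg20, Ms4a4c, Mx1, Ncapg, Oasl2 and Saa3), and 2 lower ones (Bex1 and Ifi27). With 32 added to linear values, 15 higher genes were lost, among them Arg1, Trem1 and Sgo2a. The causes were not tested. Of 340 list medians under the alternatives, 328 moved by less than the robust SD of all differences (0.141) and 12 by more; 31 changed sign, all with a main median of at most 0.117 from 0. Of 1843 values of named genes, 1751 moved by less and 92 by more; 23 changed sign, and Tox2 was the only one of these that was at least 2-fold apart. Centring on housekeeping genes moved the median of all differences to 0.05. No paired analysis was possible because each group had 1 array, all numbered 2. Signal below the array median limited Serpinb2, Traf1, Ddias, Il1a, Cxcl9, Slc16a12 and Bex1 on 1 array, and Il6, Il12b, Slc46a2 and Pglyrp1 on both.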
